A study of Mus musculus with 19 samples.

Results

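The comparison described here set 3 RNA sequencing libraries of banded JP2NT-OE left ventricle against 3 of unoperated JP2NT-OE left ventricle, chosen by the sample labels. These are 6 of the 12 RNA-seq libraries and of the 19 samples of the series. By their labels, all 6 carry the same transgene, an HA-tagged amino-terminal part of junctophilin-2 (JP2NT) placed under the heart muscle α-MHC promoter. The banded group consisted of male mice operated on at 9 weeks of age by transverse aortic banding (TAB) and sampled 3 weeks later. The baseline group consisted of littermates without surgery, taken at the same age of 12 weeks. No sham-operated group is among the samples, so pressure load and surgery cannot be told apart, and "banding" below stands for both. Labels number the replicates without saying that each was a separate mouse, so each p-value reflects spread from library to library, which may be partly technical. The 6 libraries of littermates without the transgene, 3 banded and 3 unoperated, supplied an estimate of spread and values to set beside those of JP2NT-OE.

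Junctophilin-2 is a structural protein that ties the transverse tubules of heart muscle cells to the sarcoplasmic reticulum, which keeps calcium channels and calcium release channels close together. Proteases released or activated under stress can cut it, and an amino-terminal fragment can then reach the nucleus. Narrowing of the aorta forces the left ventricle to pump against a higher pressure. The muscle thickens, genes normally active in the fetal heart are switched on again, matrix is laid down by fibroblasts, and genes of fatty acid use and contraction tend to be expressed less. One gene can give several transcripts through alternative starts, splicing and ends. The deposited tables hold values per transcript and list transcript IDs without gene names. None of the IDs is in the gene name tables used here, so no gene, gene group or cell type is named, the labelled tissue was not checked against its marker genes nor the transgene against the genotype labels, and transcripts are described by size, abundance, length and direction. In bulk tissue, fewer cells of a type and less RNA per cell cannot be told apart.

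Total estimated counts ran from 41844570 to 44634328 in the baseline and from 40615344 to 53097801 in the banded JP2NT-OE libraries (exact two-sided permutation p = 0.6, n = 3 per group). The number of transcripts with at least 1 TPM (TPM is a level scaled for transcript length and for library size) was 22361 ± 677 at baseline and 23676 ± 562 after banding (SD, n = 3), and the groups overlapped (exact two-sided permutation p = 0.2). The gap between length and effective length of transcripts over 5000 bases, which follows the fragment length of a library, was 161 ± 1.44 bases at baseline and 164 ± 0.780 bases after banding (SD, n = 3). The groups did not overlap in it (exact two-sided permutation p = 0.1, the smallest that 3 libraries against 3 allow), and its part in the results was not tested. On the first principal component of the 6 libraries, which held 33.8% of the variance of 18617 transcripts, baseline replicates 1, 2 and 3 lay at -33.4, -27.9 and -16.2. Banded replicates 1, 2 and 3 lay at 29.7, 33.8 and 14. The groups were separate on it, and replicate 3 of each group lay nearest to the other group.

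Banding changed 103 of 43256 tested transcripts in JP2NT-OE hearts, or 0.238% (edgeR adjusted p under 0.05). Of these, 46 rose (0.106%) and 57 fell (0.132%). Most changes were modest. Rises had a median log2 fold change of 0.76, or 1.69-fold, and falls of -0.61, with 0.00 as the median of all tested transcripts. The absolute log2 fold change was under 0.5 for 6 rises and 21 falls, from 0.5 to 1 for 21 rises and 24 falls, and from 1 to 2 for 9 rises and 10 falls. Larger changes comprised 10 rises and 2 falls. Every one of the 103 had banded and baseline libraries that did not overlap in CPM (counts per 1000000 of the scaled library total), as did 18.6% of all tested transcripts. An unadjusted p under 0.05 was found for 5197 transcripts, or 12%, split into 2634 with a higher (6.09%) and 2563 with a lower value after banding (5.93%). The adjusted p values lay close to the threshold, above 0.03 for 96 of the 103 and under 0.01 for 2.

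The number of calls was easily moved. Without JP2NT-OE baseline replicate 1, 2 or 3 it was 26, 3 or 12, and without banded replicate 1, 2 or 3 it was 8, 4 or 407. DESeq2 called 1607 transcripts, 101 of the 103 among them, whereas edgeR called 4 when given no library but these 6 (4610 at an unadjusted p under 0.05), of which 2, both falls, are among the 103. The balance of directions rested on the scaling. Library totals alone put the median transcript at a log2 value of 0.10 and called 156 rises and 39 falls, which included all 46 rises but 27 of the 57 falls.

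**Figure D1:**
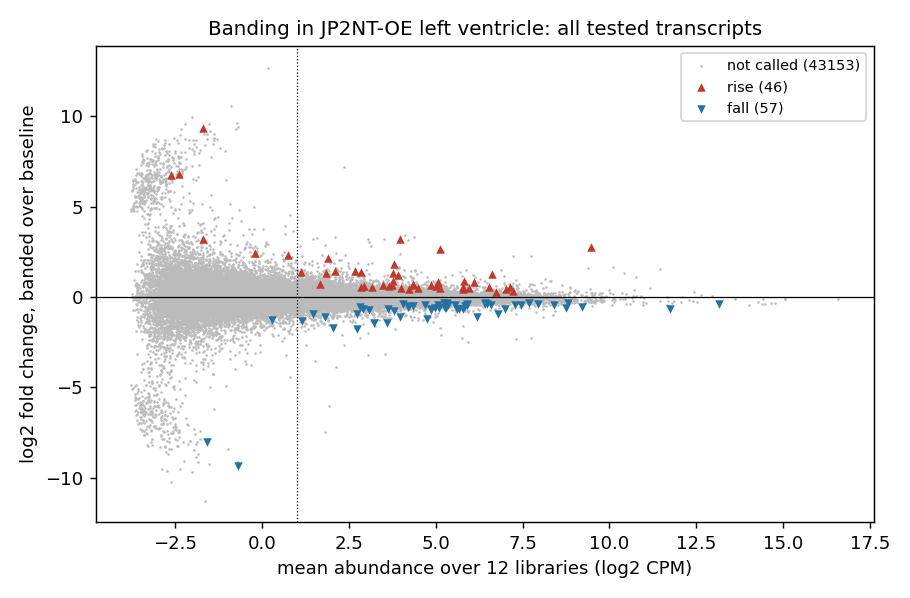
Log2 fold change with banding in JP2NT-OE hearts (vertical axis) against mean abundance over the 12 libraries (horizontal axis, log2 CPM), with 1 point per tested transcript. Red triangles mark the 46 rises, blue triangles the 57 falls and grey points the transcripts not called, and the dotted line stands at a log2 CPM of 1, the minimum for transcripts given by ID.

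**Figure D2:**
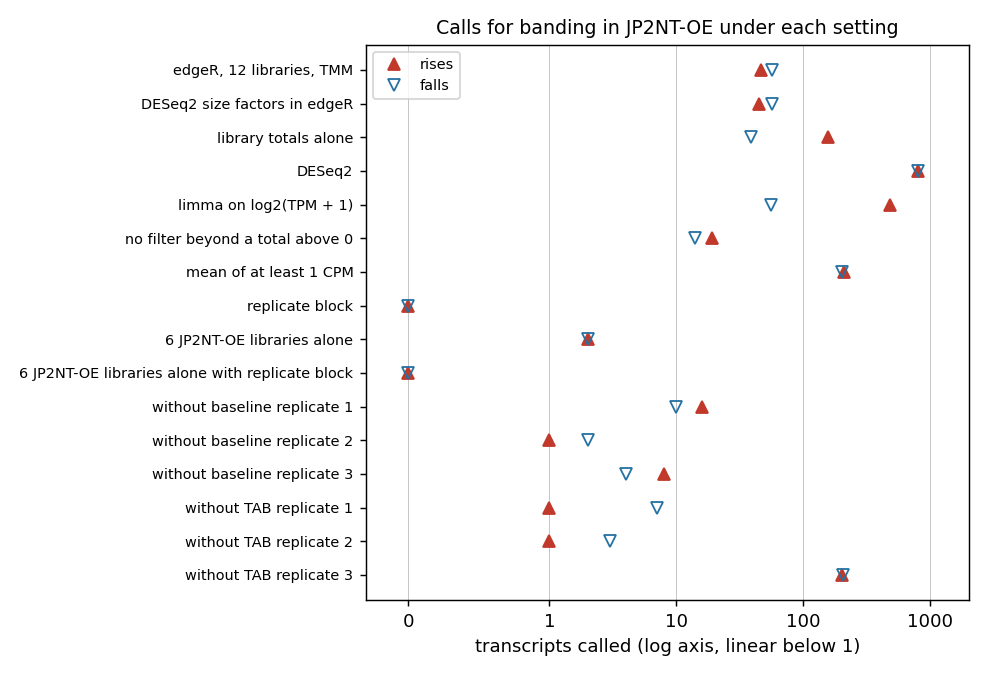
Number of transcripts that rose (filled red triangles) and fell (open blue triangles) with banding in JP2NT-OE hearts under each setting, on an axis that is logarithmic above 1. The settings gave between 0 and 1607 calls, and leaving out banded replicate 3 gave 407 where leaving out either other banded replicate gave 8 or 4.

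Only 4 transcripts are given by ID, those with the largest changes in each direction at a mean log2 CPM of at least 1. The rule also required that banded and baseline JP2NT-OE libraries did not overlap, so the lack of overlap is a description. ENSMUST00000022213.7, of 3198 bases, stood at 4.66, 4.45 and 3.90 CPM in baseline replicates 1, 2 and 3, and at 62.1, 42.6 and 14.3 CPM in banded replicates 1, 2 and 3. All banded libraries were above all baseline libraries, and among the banded ones replicate 3 was the lowest. The means were 4.34 ± 0.392 and 39.7 ± 24.0 CPM (SD, n = 3), a 9.16-fold rise (log2 fold change 3.19, SE 0.45, edgeR adjusted p = 0.0387). Per length, its level went from 1.48 ± 0.0579 to 15.4 ± 9.61 TPM (SD, n = 3). In banded controls it stood at 134, 101 and 83.9 CPM, so that even the highest banded JP2NT-OE library, at 62.1 CPM, was below the lowest banded control library. The log2 change was 4.72 in controls, and the difference of the changes, -1.52, did not pass (SE 0.60, edgeR adjusted p = 0.493).

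ENSMUST00000103230.4, of 865 bases, was the most abundant of the 46 rises. It stood at 144, 255 and 344 CPM in baseline replicates 1, 2 and 3, and at 1865, 2229 and 951 CPM in banded replicates 1, 2 and 3. Again the groups did not overlap, and banded replicate 3, the lowest of its group, lay over the highest baseline library. The mean rose from 247 ± 100.3 to 1682 ± 659 CPM (SD, n = 3), or 6.80-fold (log2 fold change 2.77, SE 0.40, edgeR adjusted p = 0.0387). Its level per length went from 370 ± 168 to 2815 ± 1191 TPM (SD, n = 3), far above the 15.4 TPM of ENSMUST00000022213.7 in banded hearts. Banded controls held 4165, 5049 and 3683 CPM, above every banded JP2NT-OE library. The log2 change was smaller by 1.96 than the 4.72 of controls, a difference that did not pass in edgeR (SE 0.54, adjusted p = 0.283) and passed with DESeq2 (adjusted p = 0.021).

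Of the falls, ENSMUST00000196188.4, of 323 bases, ranked first. It was at 9.75, 9.06 and 11.1 CPM in baseline replicates 1, 2 and 3, and at 2.39, 3.57 and 2.91 CPM in banded replicates 1, 2 and 3. Both groups were narrow and far apart. The mean fell from 9.98 ± 1.05 to 2.95 ± 0.591 CPM (SD, n = 3), which is -1.76 on the log2 scale (edgeR adjusted p = 0.0387, SE 0.26). Its level per length went from 62.6 ± 9.90 to 21.0 ± 4.65 TPM (SD, n = 3). In controls it was at 10.2, 8.76 and 10.2 CPM unoperated and at 10.3, 7.33 and 4.50 CPM banded, groups that overlapped. The log2 change there was -0.40 and did not pass (edgeR adjusted p = 0.412). The difference of the changes was -1.36 (SE 0.36), which did not pass in edgeR (adjusted p = 0.269) and passed with DESeq2 (adjusted p = 0.0189).

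ENSMUST00000189437.6, of 2534 bases, had 8.22, 6.53 and 6.83 CPM in baseline replicates 1, 2 and 3, and 2.77, 2.30 and 1.47 CPM in banded replicates 1, 2 and 3. The mean fell from 7.19 ± 0.899 to 2.18 ± 0.660 CPM (SD, n = 3), which is -1.72 on the log2 scale (edgeR adjusted p = 0.0387, SE 0.25). Per length it was much rarer than ENSMUST00000196188.4, at 3.14 ± 0.297 TPM before and 1.07 ± 0.359 TPM after banding (SD, n = 3). Controls gave nearly the same values, with 7.43 ± 0.938 CPM unoperated and 2.43 ± 0.581 CPM banded (SD, n = 3). The difference of the log2 changes was -0.11 (SE 0.34, edgeR adjusted p = 0.976). All 4 transcripts lost their calls without any 1 baseline library, without banded replicate 1 or 2, with the replicate number as a block and with the 6 JP2NT-OE libraries alone, with or without that block. They kept them in the other 7 of 15 alternatives. Over the alternatives their log2 fold changes ran from 2.50 to 3.59, 2.49 to 3.08, -1.91 to -1.54 and -1.93 to -1.01, in the order given above.

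**Figure D3:**
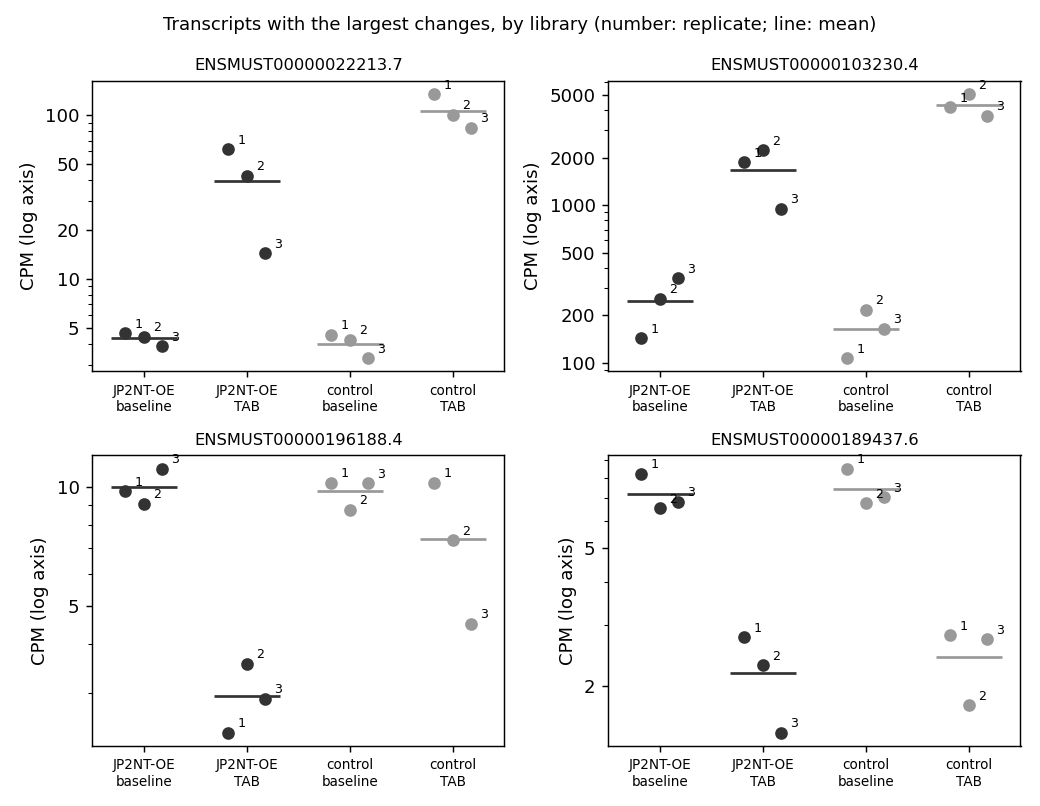
CPM (vertical axes, logarithmic) of the 4 transcripts given by ID, with 1 point per library, its replicate number beside it, and a line at each group's mean. Black points are JP2NT-OE and grey points control libraries. Banded JP2NT-OE libraries do not overlap their baseline in any panel, which the rule for IDs required. In the upper panels, banded JP2NT-OE libraries lie between the unoperated libraries and the banded controls.

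Taking 12 transcripts in each direction by the same rule, the log2 fold changes ran from 3.19 to 1.26 among rises and from -1.76 to -0.94 among falls. The rises were 765 to 14910 bases long with a mean log2 CPM of 1.12 to 9.46, and the falls 323 to 7433 bases long with 1.16 to 6.80. Controls had been called in the same direction for 10 of these 12 rises and 11 of these 12 falls, where controls were called up for 4.16% and down for 4.45% of all tested transcripts. Calls in controls were more frequent at a mean log2 CPM of at least 1, as required of these transcripts. There, 2904 of 18617 were called in the direction of the JP2NT-OE change and 244 in the opposite direction. The third rise, a transcript of 4153 bases, stood at 9.00, 10.7 and 18 CPM at baseline and at 97.9, 107 and 34.2 CPM after banding in replicates 1, 2 and 3, again with banded replicate 3 lowest. The longest of the rises, of 14910 bases, showed another order, with 162, 116 and 186 CPM in banded replicates 1, 2 and 3 over 72.0, 55.9 and 66.4 CPM at baseline. Among the falls, a transcript of 6464 bases went from 118, 106 and 112 CPM to 51.8, 48.6 and 56.1 CPM in replicates 1, 2 and 3, or -1.10 on the log2 scale (edgeR adjusted p = 0.0344, SE 0.14).

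Of the 103 calls, 1 was made in all 6 fits that left out a JP2NT-OE library, and it is described here after its values were seen. This transcript of 369 bases stood at 75.5, 69.0 and 74.0 CPM at baseline and at 47.0, 44.8 and 43.6 CPM after banding in replicates 1, 2 and 3. Its log2 fold change was -0.69 (SE 0.06, edgeR adjusted p = 0.00584). It was called in 6 of 8 other settings of scaling, filter, tool, block and libraries. Those 8 take in 1 fit with the replicate number as a block and leave out the other such fit. Each of those block fits called 0 transcripts. In controls the log2 change of this transcript was -0.74. A single other transcript was called in 5 of the 6 fits that left out a library. It has 5236 bases, stood at 5.58, 9.36 and 4.92 CPM at baseline, and was called in 7 of those 8 settings. The 3 banded libraries together held 1 count of it. Controls showed the same loss, from 12.2, 7.28 and 10.1 CPM unoperated to 0 CPM in all 3 banded libraries.

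Of the 103 calls, 9 (6 rises and 3 falls) had a mean log2 CPM under 1, and several of them were near an all-or-none change. Among these 9, 3 transcripts had 0 counts in all 3 baseline libraries. Set against a floor of 3 counts over the baseline group, they were at least 78.1-fold, 13.4-fold and 12.9-fold higher after banding, on 273, 46 and 44 counts in the banded libraries. The first of them, of 1896 bases, was also at 0 CPM in unoperated controls and at 2.50 CPM in banded controls. The other two, of 1171 and 1200 bases, were present in controls in both states, at 0.319 and 0.133 CPM unoperated and at 0.184 and 0.217 CPM banded. In the opposite direction, a transcript of 991 bases had 94 counts at baseline and 0 in all 3 banded libraries. Against a floor of 3 counts over the banded group, it was at least 36.0-fold lower. It was at 0.357 CPM in unoperated and 0.963 CPM in banded controls. Reads that fit several similar transcripts were divided among them by the authors' software, so a transcript at 0 need not mean a silent gene.

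Calls were concentrated among abundant transcripts, where the fold change is also better determined. Ordered by abundance into 3 classes of equal size, the most abundant class held 36 rises and 51 falls (0.603% of its 14419 transcripts, median SE of the log2 fold change 0.12). The middle class held 6 rises and 5 falls (0.0763%, median SE 0.33), and the least abundant class 4 rises and 1 fall (0.0347%, median SE 0.82). A change of 0.76, the median of the rises, is therefore under 1 SE for the typical transcript of the least abundant class and was not detectable there. One call near the threshold had a log2 fold change of -0.334 at an SE of 0.0555 (edgeR adjusted p = 0.0481). By that ratio, 0.76 would not typically be called in the middle class either. In the most abundant class it is near the limit. By length, transcripts up to 1000 bases held 11 rises and 14 falls (0.199%) and those over 4000 bases 11 rises and 12 falls (0.279%), 2 shares that no test compared. The called transcripts had a median length of 2534 bases, compared with 2088 bases for all tested ones.

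The abundant transcripts among the calls, 40 rises and 54 falls with a mean log2 CPM of at least 1, were read in every library. They had been picked in the JP2NT-OE libraries, so their values there are a description. The median log2 difference of the 40 rises from the JP2NT-OE baseline mean was 0.75, 0.69 and 0.64 in banded replicates 1, 2 and 3. For the 54 falls it was -0.63, -0.58 and -0.52, so that replicate 3 had the smallest shift in both directions. Transcript by transcript, banded replicate 3 was the closest of its group to baseline for 21 of the 46 rises and 30 of the 57 falls, replicate 2 for 16 and 16, and replicate 1 for 9 and 11. In the control libraries, which had no part in the fold changes that picked them, the 40 rises stood between -0.01 and 0.04 unoperated and between 0.78 and 0.85 banded. The 54 falls stood between -0.07 and -0.00 unoperated and between -0.81 and -0.80 banded. Over all 18617 transcripts of that abundance, the median lay between -0.03 and 0.01 in each of the 12 libraries. The scaling is built to bring that median near 0, so it is no separate background. With library totals alone, the median log2 fold change of all tested transcripts was 0.10 in JP2NT-OE and 0.19 in controls.

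**Figure D4:**
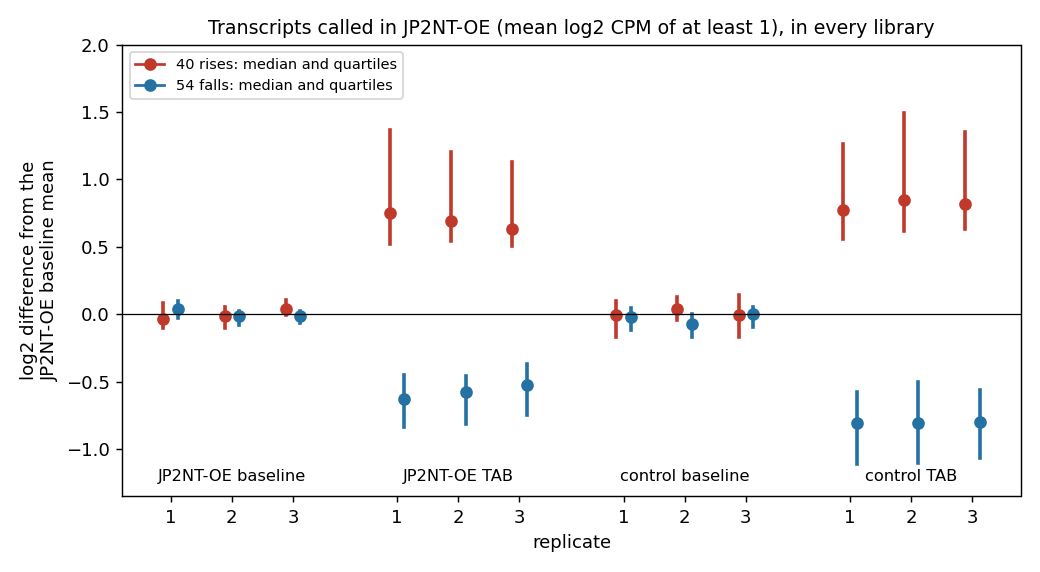
Median (point) and quartiles (line) of the log2 difference from the JP2NT-OE baseline mean (vertical axis) in each of the 12 libraries, for the 40 rises (red) and 54 falls (blue) called in JP2NT-OE at a mean log2 CPM of at least 1. Unoperated libraries of both genotypes lie near 0, and banded libraries of both genotypes lie apart from them in the same direction.

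The 20 most abundant transcripts together took a smaller share of counts in each banded library than in any baseline library, which did not hold for the 100 most abundant. Those 20, chosen by their mean share in the 6 libraries, took 42.2%, 41.5% and 40.2% of all counts in baseline replicates 1, 2 and 3, and 37.9%, 37.6% and 39.5% in banded replicates 1, 2 and 3. The group means were 41.3% ± 0.986 and 38.3% ± 1.0 (SD, n = 3, exact two-sided permutation p = 0.1, the smallest possible). One by one, 16 of the 20 had a negative log2 fold change, the values ran from -0.42 to 0.29 with a median of -0.21, and 1 was called. For the 100 most abundant, the share was 51.9% ± 1.01 at baseline and 49.5% ± 1.20 after banding (SD, n = 3), and the groups overlapped (exact two-sided permutation p = 0.2). The called transcript among the 20, of 3984 bases, took 1.05% ± 0.0340 of counts at baseline and 0.856% ± 0.0276 after banding (SD, n = 3, log2 fold change -0.40, SE 0.06, edgeR adjusted p = 0.0387). Banded minus baseline, the summed share was -2.97 percentage points in JP2NT-OE and -7.49 in control hearts. Permuting genotype within the banded and within the unoperated libraries, this difference of 4.52 points, tested after the data were seen, passed (p = 0.025, exact and two-sided over 400 assignments). The 20 were ranked without the control libraries, and what that choice adds to the difference was not tested.

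The same operation was compared in controls, whose fold changes come from other libraries but whose tests share the spread estimate, filter and scaling of the 12-library fit. Banding in controls was called for 8.6% of all tested transcripts and for 92 of the 103 (39 rises, 53 falls), each time in the same direction. Among transcripts with a mean log2 CPM of at least 1, controls were called in the direction of the JP2NT-OE change for 37 of the 40 rises and 51 of the 54 falls, and for 2904 of all 18617 (244 more were called in the opposite direction). Control groups that did not overlap, moving the same way, were found for 95 of the 103, and non-overlapping control groups in either direction for 28.3% of all tested transcripts. Of the 100 called transcripts with the same sign in both genotypes, 67 had the smaller change in JP2NT-OE, a share near that of all tested transcripts (17241 of 27591 with the same sign) and of those with a mean log2 CPM of at least 1 (8934 of 13121). The edgeR test of the difference between the genotypes passed for 0 of the 103 (lowest adjusted p = 0.094), and over all tested transcripts for 1, or 0.00231%. DESeq2 called that difference for 673 of 17240 transcripts, with ENSMUST00000103230.4 and ENSMUST00000196188.4 among them. At an unadjusted p under 0.05 the edgeR test was met by 41 of the 103 and by 8.65% of all tested transcripts. It uses the libraries in which the 103 were picked, so no weight is given to that share. The change was smaller in JP2NT-OE for 31 of the 41 and larger, or of opposite sign in controls, for 10. Over all tested transcripts meeting that p, it was smaller for 1604 and larger or opposite for 2137, and at a mean log2 CPM of at least 1 the numbers were 1347 and 1118.

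In all, 11 transcripts (7 rises and 4 falls) were called in JP2NT-OE and not in controls, which does not by itself show that the genotypes differ. For 10 of them the difference had an unadjusted edgeR p under 0.05, as it had for 8.65% of all tested transcripts, and the lowest adjusted p was 0.094. Picking transcripts called in 1 genotype alone favours a small p in this test, which uses the same libraries, so no weight is given to that count. Of the 11, 6 had a mean log2 CPM of at least 1. Among these, a transcript of 1290 bases fell from 15.2 ± 0.685 to 9.71 ± 0.740 CPM in JP2NT-OE and stood at 13.1 ± 0.281 and 11.7 ± 0.0354 CPM in controls (SD, n = 3), a difference of log2 changes of -0.48 (SE 0.10, edgeR adjusted p = 0.176). Another, of 4073 bases, rose from 1.58 ± 0.157 to 4.12 ± 1.08 CPM in JP2NT-OE and stood at 1.89 ± 0.192 and 1.70 ± 0.349 CPM in controls (SD, n = 3), a difference of 1.53 (SE 0.31, edgeR adjusted p = 0.176). Neither difference passed in edgeR, and the 2 were chosen for mention after their values were seen, as the lowest adjusted p of the 6.

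**Figure D5:**
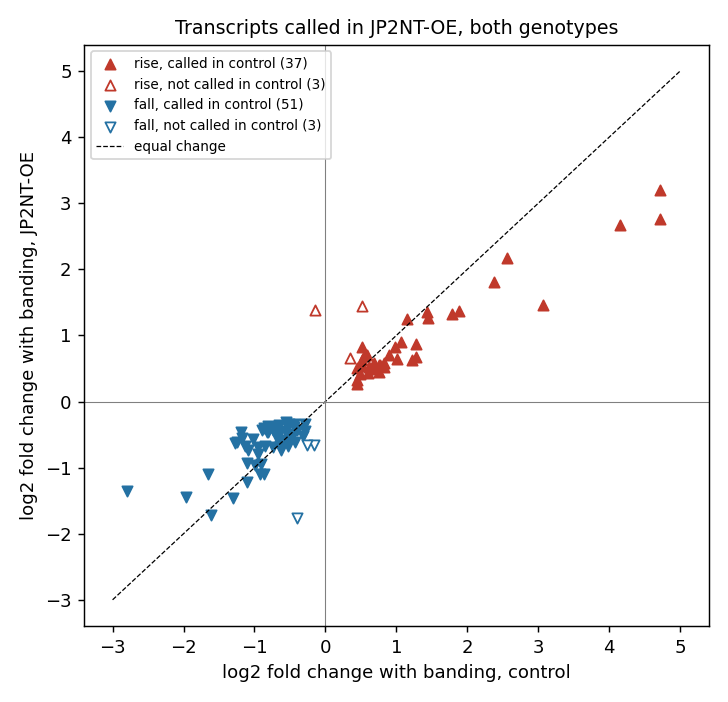
Log2 fold change with banding in JP2NT-OE (vertical axis) against that in controls (horizontal axis) for the 94 transcripts called in JP2NT-OE at a mean log2 CPM of at least 1. Filled symbols were also called in controls (37 rises, 51 falls), open ones were not (3 rises, 3 falls), and the dashed line marks equal change.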

How the data were processed

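Per the labels' protocols, libraries were made from left ventricle RNA with a strand-preserving mRNA kit. The submitters' processing notes list kallisto 0.42.5, cutadapt 1.8.1, FastQC 0.11.3, MACS 1.4.2, Bowtie2 2.2.5 and the build mm10, without role or order. The transcript annotation is not given in the sources used here. Each table lists 96626 transcripts with estimated counts (expected counts, which need not be whole) and TPM, both deposited by the authors, per the file headers. Lengths and effective lengths are in bases.

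Estimated counts were rounded to whole numbers for edgeR 4.0.16 (R 4.3.3): filterByExpr by group kept 43256 transcripts, TMM factors scaled the libraries, and the model gave each of the 4 groups its own mean over 12 libraries (8 residual degrees of freedom, quasi-likelihood test, Benjamini-Hochberg adjustment, threshold 0.05). The fold change rests on the 6 JP2NT-OE libraries, and the control libraries add to the spread, filter and scaling. Each SE is the fold change divided by the root of its F statistic. Library log2 CPM used a prior count of 2. Alternatives used DESeq2 1.42.0 and limma 3.58.1 (on log2(TPM + 1)), among others. The script was tested on simulated data. Replicates differed by more than counting noise.

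Counts were to be summed per gene and read in 31 gene and marker lists, but 0 IDs matched the gene name tables, so transcripts were used, lists were not run and no sequence is printed. The rule for IDs took called transcripts with a mean log2 CPM of at least 1 and groups without overlap, ranked by fold change; 2 per direction are printed where IDs have no gene name. The comparison, the lists and the rule were chosen with earlier results of these data known. The ChIP-seq samples (7) were not analysed here.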

Additional observations from a re-analysis of the deposited data

Results flagged for a closer look

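The mean summed share of counts in the 20 most abundant transcripts, ranked in the JP2NT-OE libraries alone, fell less with banding in JP2NT-OE than in control hearts. It was 41.3% ± 0.986 at baseline and 38.3% ± 1.0 after banding in JP2NT-OE, and 42.0% ± 1.33 and 34.5% ± 0.521 in control hearts (SD, n = 3), and the change in JP2NT-OE minus that in controls was 4.52 percentage points (exact two-sided permutation p = 0.025 over 400 assignments). This test was chosen after the data were seen. Its permutation assumes no genotype difference in either state, so it cannot by itself show that the changes differ. The variants below reuse the same libraries and are not separate evidence. The difference lay between 3.94 and 5.27 points when each of the 12 libraries was left out (exact permutation p from 0.01 to 0.045), and was 3.76 points for the 100 most abundant transcripts and 5.03 points when shares were taken in TPM.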

How the results depend on the processing

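The 103 calls for banding in JP2NT-OE became 195 with library totals alone, 1607 with DESeq2 (800 rises, 807 falls), 536 with limma on log2(TPM + 1) (480 rises, 56 falls), 33 without the filter, 411 at a mean of at least 1 CPM and 4 with the 6 JP2NT-OE libraries alone. Leaving out 1 library gave 3 to 407. With the replicate number as a block edgeR called 0 (4817 with an unadjusted p under 0.05), and with the block in the 6 libraries alone 0 (3786). Deviations of same-numbered baseline and banded libraries had correlations of -0.0112, 0.0548 and -0.0106, and not every library correlated best with its own number. A pairing by design can leave no such correlation, so these values cannot tell whether the numbers pair the samples. Calls for banding in control, 3722 in the main fit, were 5538 with DESeq2, 8387 with limma and 3040 with the replicate block. They were 2231 to 2970 without 1 library. The 1 call for the difference between genotypes became 673 with DESeq2, 10 with limma, 8 at a mean of at least 1 CPM and 0 with the replicate block (3448 with an unadjusted p under 0.05), and 0 to 8 without 1 library. The small difference of ENSMUST00000189437.6 turned to 0.00248 without JP2NT-OE baseline replicate 1, 0.0101 without control TAB replicate 1 and 0.11 without JP2NT-OE TAB replicate 3, in a range from -0.32 (without JP2NT-OE TAB replicate 1) to 0.11 on the log2 scale. The causes were not tested. Banded minus baseline total counts came to -400208 without JP2NT-OE TAB replicate 1, the deepest library, and reached 5841020 without replicate 2. The difference in the share of the 20 most abundant transcripts lay between -3.55 and -2.53 points without 1 library, and was -2.32 points for the 100 most abundant and -3.43 points in TPM. Alternatives for controls, for the total counts and for the genotype difference in that share were added after the data were seen. Leaving out 1 library leaves 2 in its group.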

Other observations

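Transcripts at 0 in one state and present in the other were counted without a test. The filter can keep a transcript through the 1 group where it is present. These numbers and folds therefore partly follow from the filter and the counting rule, and are a description. In JP2NT-OE hearts, 76 of 43256 tested transcripts had 0 rounded counts in all 3 baseline libraries and over 3 counts in each banded library. Of the 76, 3 were called, where 0.238% of all tested transcripts were. Set against a floor of 3 counts over the baseline group, the 76 were at least 5.31-fold to 802-fold higher, with a median of at least 19.9-fold. In the opposite direction there were 38 transcripts, of which 1 was called, at least 7.32-fold to 339-fold lower against a floor of 3 counts over the banded group. The same rule gave 108 and 43 transcripts in controls, and whether these numbers differ between genotypes was not tested. None of these transcripts exceeded a group mean of 19.3 CPM in the state where it was present. Length minus effective length of transcripts over 5000 bases was larger after banding by 3.31 bases in JP2NT-OE and by 3.45 bases in controls (difference -0.139 bases, exact two-sided permutation p = 0.935).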
